A study of Mus musculus with 6 samples.

Results

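Glutamate receptors and transporters were compared between retinal explants of Sall3 knockout and wild-type mice. Sall3 belongs to the Spalt family of zinc finger transcription factors. The genes were chosen by name. From a list of 31 symbols, every transcript cluster carrying 1 of them as its single gene symbol was taken, and each gene was represented by its brightest cluster over the 6 arrays. A transcript cluster is the group of array probes that lie along the exons of a putative transcript. Clusters with a single symbol were found for 28 genes, and 27 of them passed the filter on dim clusters, out of 17468 genes tested in all. Grm5, for the metabotropic receptor mGluR5, fell below the filter. Grin3a and Slc1a2 lay only on clusters with several symbols, and no named cluster of Grin1 was used here.

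Both groups were of strain C57BL/6 and of mixed sex, and they differed in genotype, labelled Sall3 knockout and wild-type. Retinas were dissected on postnatal day 0, spread on membrane filters and cultured for 7 days in medium with serum. Each group held 3 samples, each of RNA pooled from 3 retinas and hybridised to an Affymetrix exon array of its own. The labels name the deleted gene but no allele. They do not tell whether the samples had separate litters or cultures behind them, and the p-values therefore refer to the spread among these 6 samples, which may be technical. In whole retina, fewer cells of a type and less RNA per cell cannot be told apart.

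Glutamate carries the visual signal from photoreceptors to bipolar cells and from bipolar cells to ganglion cells. Photoreceptors load it into synaptic vesicles and release it in the dark. ON bipolar cells sense it through the metabotropic receptor mGluR6, and OFF bipolar and horizontal cells through AMPA and kainate receptors, which are ion channels opened by glutamate. NMDA receptors act mainly on ganglion and amacrine cells, and transporters of photoreceptors, neurons and Müller glia clear the transmitter.

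The arrays carried markers of the labelled tissue, with 5 of 7 rod, 7 of 7 cone, 5 of 5 horizontal cell, 7 of 8 bipolar cell, 8 of 8 amacrine cell and 7 of 8 ganglion cell markers tested. The first principal component, with 31.9% of the variance, set 2 arrays apart, since knockout 1 scored -98.5, wild-type 3 scored 62.5 and the other 4 arrays scored 2.87 to 11.9. Differences were also computed without these 2 arrays. The targeted gene did not check the labels: the log2 signal of Sall3 was 6.24, 6.05 and 6.13 in knockout 1, 2 and 3, against 6.21, 6.36 and 6.33 in wild-type 1, 2 and 3, and the groups overlapped.

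None of the 27 glutamate genes differed between the genotypes beyond the spread between arrays. In limma's fit over all 75632 clusters, 0 were higher and 0 lower at an adjusted p under 0.05, against 0.0% of all clusters called higher and 0.0% called lower. At an unadjusted p under 0.05, 0 of the 27 were called, where 0.544% of all genes were higher and 1.05% lower, or 1.6% in both directions. Knockout means were above wild-type means for 16 genes and below them for 11. The median difference was 0.02 on the log2 scale, beside -0.01 over all genes, and the differences ranged from -0.35 to 0.19. Every 95% interval held 0, and for 24 genes it lay within a 1.5-fold change in either direction. Differences exceeding 0.2 in size belonged to 3 genes, namely Grik1, Grik3 and Slc17a6. The median size of a difference was 0.064, smaller than the median range among knockout arrays, 0.218, or among wild-type arrays, 0.145.

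**Figure D1:**
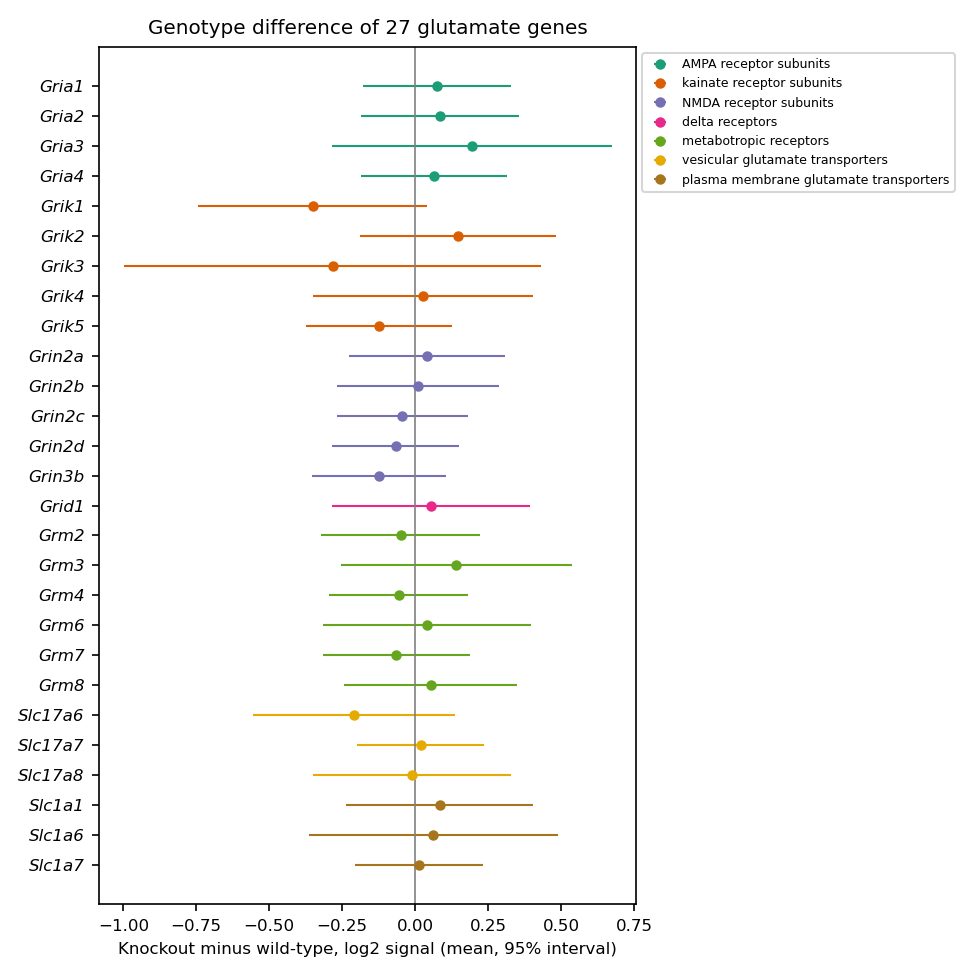
Difference in log2 signal between knockout and wild-type explants (horizontal axis) for the 27 genes tested, with points for the mean difference of 3 arrays against 3 and bars for limma's 95% interval, coloured by role. All intervals hold 0, and the widest belongs to Grik3, whose difference is -0.28 (SE 0.29).

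The kainate receptor subunits held the largest difference in either direction. Grik1 encodes GluK1, through which OFF bipolar cells receive signals of cones. Its log2 signal (transcript cluster 6847659) was 7.43, 7.13 and 7.24 in knockout 1, 2 and 3, against 7.83, 7.67 and 7.36 in wild-type 1, 2 and 3. The groups overlapped, because knockout 1 lay above wild-type 3. The mean was 7.27 ± 0.15 in knockout and 7.62 ± 0.24 in wild-type explants (SD, n = 3), and the difference was -0.35 (SE 0.16, 95% interval -0.74 to 0.04, limma adjusted p = 0.791). This interval allows a knockout signal of 0.598 to 1.03 times that of wild-type. In a fit with 1 row per gene the unadjusted p of limma was 0.0439 (adjusted p = 0.924), where 1.05% of genes were called higher and 3.4% lower. Grik1 was lower in knockout under all 16 alternative settings, between -0.56 and -0.25. Settings that changed only the filter, the rows, the variance trend or the blocking left its difference at -0.35 by construction. Only other scalings, array weights and left-out arrays could move it. Beside it, 7 of 7 cone markers had lower means in knockout, with a median of -0.25, while 5 of 7 bipolar cell markers had higher ones, with a median of 0.11. The bipolar direction rested on knockout 1 and wild-type 3, since without both 2 of 7 were higher and 5 lower, with a median of -0.065, whereas 7 of 7 cone markers were lower, with a median of -0.32. Relative to the wild-type mean, the cone marker median lay between -0.34 and -0.28 in knockout arrays and between -0.12 and 0.13 in wild-type arrays. Horizontal cell markers were lower in 5 of 5 genes, with a median of -0.30, and of -0.49 without both arrays. Whether any of these marker groups contributes to the Grik1 value was not tested.

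Grik3, for the subunit GluK3, varied more among arrays of the same genotype than between genotypes. Signals of 7.94, 7.09 and 7.17 in knockout 1, 2 and 3 stood against 7.97, 7.29 and 7.80 in wild-type 1, 2 and 3. Knockout 1, wild-type 1 and wild-type 3 formed the upper values, and the other arrays lay at 7.29 or below. Its dimmer cluster had the same 3 arrays on top, at 7.65, 7.78 and 7.16, with knockout 2, knockout 3 and wild-type 2 at 6.37, 6.58 and 6.56. The difference of -0.28 (SE 0.29, limma adjusted p = 0.937) on the brighter cluster and of -0.30 (SE 0.44) on the dimmer one was smaller than this spread. Without knockout 1 it stood at -0.55 and without knockout 2 at -0.13.

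Grik5 encodes GluK5, a subunit that forms channels only together with the principal kainate subunits. Its signal was 8.69, 8.72 and 8.73 in knockout 1, 2 and 3, against 8.77, 8.77 and 8.98 in wild-type 1, 2 and 3, so the groups were separate with knockout the lower, but they overlapped with the values as deposited and with median centring. As deposited, knockout 2 at 8.76 lay above wild-type 2 at 8.73. The difference was -0.12 (SE 0.10, limma adjusted p = 0.916), and -0.06 without wild-type 3. Grik2, for GluK2, had signals of 8.48, 8.27 and 8.30 in knockout 1, 2 and 3, against 8.31, 8.32 and 7.98 in wild-type 1, 2 and 3. Its difference of 0.15 (SE 0.14) became 0.04 without wild-type 3, the lowest array. Grik4, for GluK4, differed by 0.03 (SE 0.15), and its dimmer cluster stood at -0.10 (SE 0.21).

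**Figure D2:**
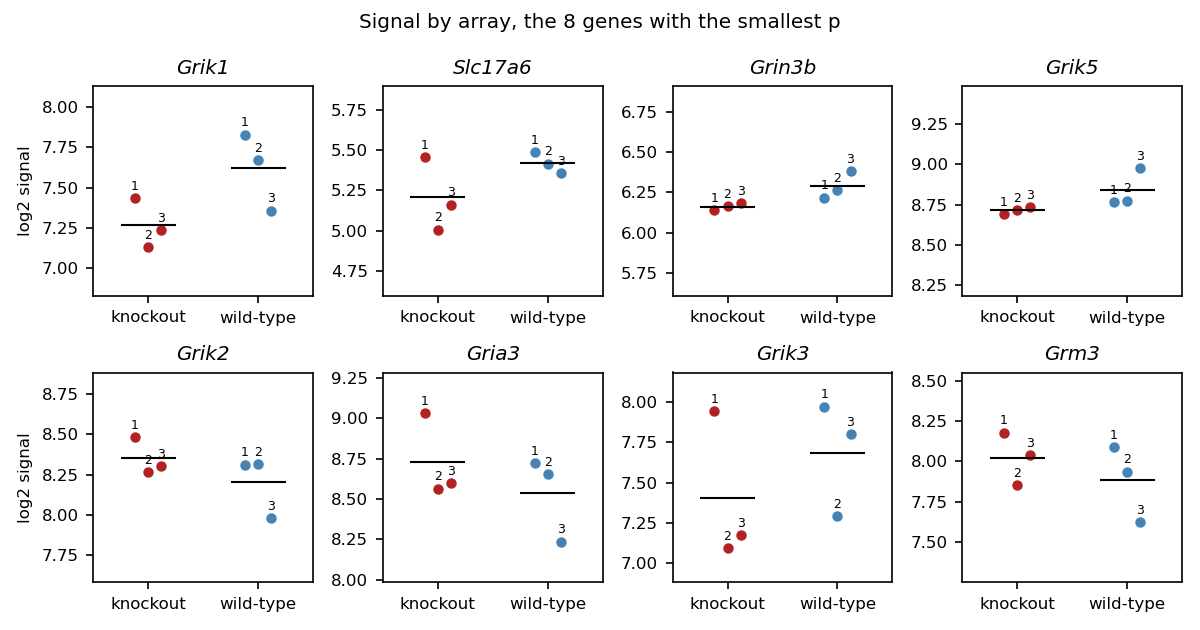
Log2 signal (vertical axis, each panel spanning 1.3 units) of the 8 genes with the smallest p in knockout (red) and wild-type (blue) explants, with a point and its sample number for each array and a line for the mean of 3. Knockout 1 exceeds wild-type 3 in all panels except Grin3b and Grik5.

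AMPA receptor subunits, which carry most fast excitation in the retina, all had slightly higher means in knockout explants, and wild-type 3 was the lowest array for each. Gria3, for GluA3, had the largest of these differences. Its signal was 9.03, 8.56 and 8.60 in knockout 1, 2 and 3, against 8.72, 8.65 and 8.24 in wild-type 1, 2 and 3. The groups overlapped widely, and the difference of 0.19 (SE 0.20, 95% interval -0.29 to 0.67) was set by knockout 1 at the top and wild-type 3 at the bottom. Without knockout 1 it was 0.04, without wild-type 3 it was also 0.04, and without both it was -0.11. Gria2 encodes GluA2, the subunit that makes AMPA receptors impermeable to calcium, and had 8.95 ± 0.05 in knockout and 8.87 ± 0.14 in wild-type explants (SD, n = 3). Its difference of 0.08 (SE 0.11) was the only one among the AMPA subunits that stayed above 0 in every setting, with its smallest value of 0.0062 without wild-type 3. Gria1 and Gria4, for GluA1 and GluA4, differed by 0.07 and 0.07 (SE 0.10 and 0.10), and both were below 0 without knockout 1 and wild-type 3, at -0.03 and -0.02. Grid1, for the delta receptor GluD1, differed by 0.05 (SE 0.14).

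The 5 NMDA receptor subunits tested lay close together between the genotypes, from -0.12 to 0.04. Grin3b encodes GluN3B, a subunit that binds glycine rather than glutamate. Its signal was 6.14, 6.17 and 6.18 in knockout 1, 2 and 3, against 6.22, 6.26 and 6.38 in wild-type 1, 2 and 3. The groups were separate here and with median centring, with knockout the lower, and overlapped in the values as deposited. There knockout 3, wild-type 1 and wild-type 2 held the same value, 6.22, so the order of these arrays arose from the scaling. The difference was -0.12 (SE 0.09, limma adjusted p = 0.904), and it stood at -0.08 without wild-type 3. Together Grik5 and Grin3b made 2 of 27 genes with separate groups on the lower side and 0 on the higher side, beside 11.2% and 1.7% of all genes. In the deposited values this count was 0 on either side, beside 3.75% and 4.6%. With median centring it was 1 on the lower side, Grin3b, and 0 on the higher, beside 5.35% and 2.44%. Grin2a and Grin2b encode the GluN2A and GluN2B subunits, which shape the time course of NMDA receptor currents, and differed by 0.04 (SE 0.11) and 0.01 (SE 0.11). Grin2c and Grin2d stood at -0.04 and -0.07 (SE 0.09 for each).

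The stretches before the annotated start of both genes with groups separate after normalization are shown beside those of a pair of vesicular transporters. Of this pair, Slc17a6 had the second smallest p and Slc17a7 a small and precise difference. Sequences are the 250 bases upstream of the start on the gene's strand, from RefSeq on GRCm38.p6, and no binding was measured in this series. They are chr7:25072370-25072619 (minus strand) for Grik5, chr10:79970474-79970723 (plus strand) for Grin3b, chr7:45163671-45163920 (plus strand) for Slc17a7 and chr7:51624387-51624636 (plus strand) for 1 of the 2 annotated starts of Slc17a6, shown because it held a match. The stretch before the other start, chr7:51621580-51621829, held no match and 53.2% G or C. Capitals mark matches of GGATTA, letters bound by the photoreceptor and bipolar cell factors Crx and Otx2, or of ATATT, AT-rich letters bound by the related mouse protein Sall4, on either strand.
Grik5: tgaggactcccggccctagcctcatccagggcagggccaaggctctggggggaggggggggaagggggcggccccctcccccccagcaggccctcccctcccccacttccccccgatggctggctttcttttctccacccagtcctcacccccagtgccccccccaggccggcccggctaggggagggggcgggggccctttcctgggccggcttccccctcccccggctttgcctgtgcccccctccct
Grin3b: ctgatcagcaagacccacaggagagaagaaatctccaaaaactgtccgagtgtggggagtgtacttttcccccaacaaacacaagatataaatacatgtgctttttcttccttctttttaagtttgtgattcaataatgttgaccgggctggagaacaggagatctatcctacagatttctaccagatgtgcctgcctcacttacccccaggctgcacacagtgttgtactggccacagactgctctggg
Slc17a7: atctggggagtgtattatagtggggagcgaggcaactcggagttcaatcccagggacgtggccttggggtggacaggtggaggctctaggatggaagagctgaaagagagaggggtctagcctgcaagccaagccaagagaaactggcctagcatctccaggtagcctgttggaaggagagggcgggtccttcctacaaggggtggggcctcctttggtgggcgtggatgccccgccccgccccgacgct
Slc17a6: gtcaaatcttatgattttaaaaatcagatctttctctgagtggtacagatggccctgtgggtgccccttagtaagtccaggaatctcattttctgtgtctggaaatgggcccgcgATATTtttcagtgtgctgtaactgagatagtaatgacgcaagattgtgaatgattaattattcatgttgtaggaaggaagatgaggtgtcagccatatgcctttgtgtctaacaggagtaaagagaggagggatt
The base composition differed widely, with 75.2% G or C before Grik5, 46.0% before Grin3b, 61.2% before Slc17a7 and 41.2% before this start of Slc17a6. The only match among the 4 printed stretches was an ATATT that begins 135 bases before the Slc17a6 start, and the motifs overlapped nowhere. The table held 27 promoters of 22 of the listed genes. Of these, 4 held ATATT and 0 held GGATTA, beside 23.3% and 6.3% of 32851 promoters of all genes.

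The metabotropic receptors, which act through G proteins, showed no common direction, with 3 higher and 3 lower means among the 6 tested. Grm6 encodes mGluR6, the receptor that defines ON bipolar cells. Its signal was 9.44, 9.28 and 9.22 in knockout 1, 2 and 3, against 9.44, 9.36 and 9.02 in wild-type 1, 2 and 3. Wild-type 1 and wild-type 2 lay inside the knockout range and wild-type 3 below it. The difference was 0.04 (SE 0.14, 95% interval -0.31 to 0.40). It was -0.15 without knockout 1 and wild-type 3.

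Grm3, for mGluR3, read 8.18, 7.85 and 8.04 in knockout 1, 2 and 3, against 8.09, 7.94 and 7.62 in wild-type 1, 2 and 3. The difference of 0.14 (SE 0.16) was 0.01 without wild-type 3. Grm8 encodes mGluR8, an autoreceptor of photoreceptor terminals, and its 6 arrays had 5 equal deposited values of 7.44, with knockout 1 alone higher at 7.74. After normalization between arrays it differed by 0.05 (SE 0.12). Grm4 and Grm7, for the presynaptic receptors mGluR4 and mGluR7, stood at -0.06 and -0.06 (SE 0.10 and 0.10). Grm2, for mGluR2, which marks starburst amacrine cells, stood at -0.05 (SE 0.11) on its brightest cluster and at -0.52 (SE 0.25) on a much dimmer one. On the dim cluster knockout 1 read 3.12, and the other arrays lay between 3.95 and 4.30. The cluster of Grm5, below the filter value of 3.70 on average, read 3.70 in knockout 1 and between 2.71 and 3.01 in the other arrays.

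Slc17a7 encodes VGLUT1, the transporter that fills the vesicles of photoreceptors and bipolar cells with glutamate, and it was among the most even genes of the list. Its signal was 12.19, 12.30 and 12.24 in knockout 1, 2 and 3, against 12.23, 12.23 and 12.21 in wild-type 1, 2 and 3. Wild-type values lay inside the knockout range. The difference was 0.02 (SE 0.09), with an interval that allows 0.871 to 1.18 times the wild-type signal. Rod markers stood at a median of 0.01 over 5 genes.

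Slc17a6 encodes VGLUT2, the vesicular transporter of retinal ganglion cells. With a mean of 5.31 it was the dimmest of the 27 genes, where the median level of all genes was 7.05. It read 5.46, 5.01 and 5.16 in knockout 1, 2 and 3, against 5.49, 5.41 and 5.36 in wild-type 1, 2 and 3. Knockout 2 and knockout 3 lay below all wild-type arrays, and knockout 1 lay among them. As deposited, knockout 1, wild-type 2 and wild-type 3 held the same value, 5.39, so their order arose from the normalization. The mean was 5.21 ± 0.23 against 5.42 ± 0.07 (SD, n = 3), a difference of -0.21 (SE 0.14, 95% interval -0.56 to 0.14, limma adjusted p = 0.883). It was lower in all 16 alternative settings, though only other scalings, array weights and left-out arrays could move it. The difference was -0.33 without knockout 1 and -0.11 without knockout 2. Of the 7 ganglion cell markers measured, 6 had lower means in knockout, beside 9555 of all 17468 genes. The marker median was -0.07, with the neurofilament gene Nefm at -0.41 (SE 0.12, limma adjusted p = 0.671). Nefl and Sncg stood at -0.42 and -0.23, Pou4f1, Rbpms and Thy1 at -0.07, -0.04 and -0.04, and Isl2 at 0.11. Marker medians relative to the wild-type mean lay between -0.14 and -0.02 in knockout arrays and between -0.05 and 0.06 in wild-type arrays. Relative to the mean of all 6 arrays, knockout 1, 2 and 3 had medians of 0.07, -0.09 and -0.12. Wild-type 1, 2 and 3 had 0.01, 0.13 and 0.05, so knockout 1 lay above wild-type 1 and wild-type 3. The part of these markers in the Slc17a6 value was not tested. Slc17a8, for VGLUT3 of a class of amacrine cells, differed by -0.01 (SE 0.14), with knockout 1 at 5.62 and the other arrays between 5.21 and 5.42.

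The 3 transporters of the plasma membrane that were tested, which remove glutamate from the synaptic cleft, differed by less than 0.1 each. Slc1a1, for the neuronal transporter EAAC1, had 9.57 ± 0.03 in knockout and 9.48 ± 0.21 in wild-type explants (SD, n = 3). Wild-type 3, at 9.25, lay apart from the other 5 arrays, which fell between 9.53 and 9.62, and without it the difference of 0.08 (SE 0.13) turned to -0.03. Slc1a6, for EAAT4, differed by 0.06 (SE 0.17), with knockout 1 at 7.83 and the other arrays between 7.28 and 7.44. Slc1a7 encodes EAAT5, the transporter of photoreceptor and bipolar cell terminals, which is coupled to a chloride conductance. It differed by 0.01 (SE 0.09), and its interval allows 0.866 to 1.17 times the wild-type signal.

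**Figure D3:**
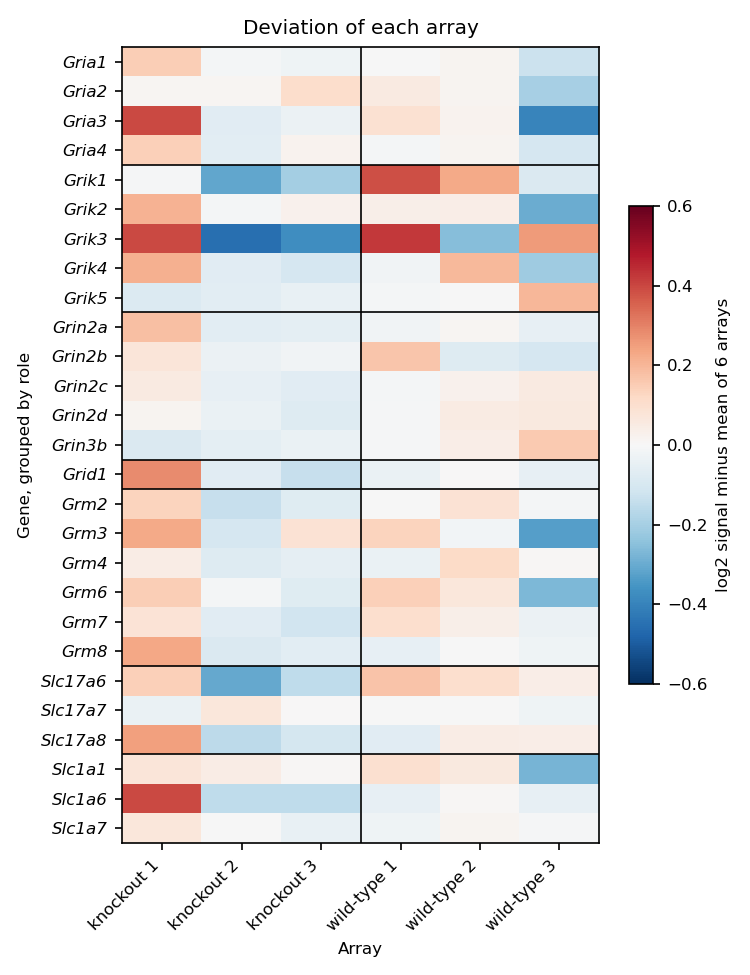
Deviation of each array (columns) from the mean of 6 arrays in log2 signal (colour) for the 27 genes (rows, grouped by role with black lines). The left column, knockout 1, is the highest array in 15 rows, and the right column, wild-type 3, is the lowest in 10.

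Knockout 1 and wild-type 3 were often the extreme arrays, among these genes and among all genes alike. Knockout 1 was the highest array for 15 of 27 genes, or 55.6%, beside 45.6% of all genes. Wild-type 3 was the lowest for 10, or 37.0%, beside 32.2%, and both held for 7, or 25.9%, beside 22.0%. Relative to the wild-type mean, the median of the 27 genes was 0.12, -0.06 and -0.08 in knockout 1, 2 and 3, against 0.01, 0.04 and -0.03 in wild-type 1, 2 and 3. Over all genes these medians were 0.06, -0.05 and -0.04 in knockout and -0.00, 0.04 and -0.03 in wild-type arrays, of the same signs in 5 of 6 arrays. Bipolar cell markers, none of them in the list, had knockout 1 on top in 6 of 7 genes and wild-type 3 at the bottom in 5 of 7. Their medians were 0.35, 0.01 and -0.00 in knockout 1, 2 and 3, against 0.06, 0.09 and -0.15 in wild-type 1, 2 and 3. Whether the makeup of these samples takes part in the receptor values was not tested.

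Leaving out both arrays changed the sign of 14 of the 27 genes. The remaining 2 arrays per group gave 2 higher and 25 lower means, with a median of -0.07 beside -0.06 over all genes. Grik1 stood at -0.56 and Slc17a6 at -0.37, and these 2 of 27 genes had an unadjusted p under 0.05 in limma, beside 2.55% of all genes, the smaller being 0.0100 for Grik1 (adjusted p = 0.507). No gene of the list, and no other row fitted, passed the adjusted threshold in this or any other setting.

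**Figure D4:**
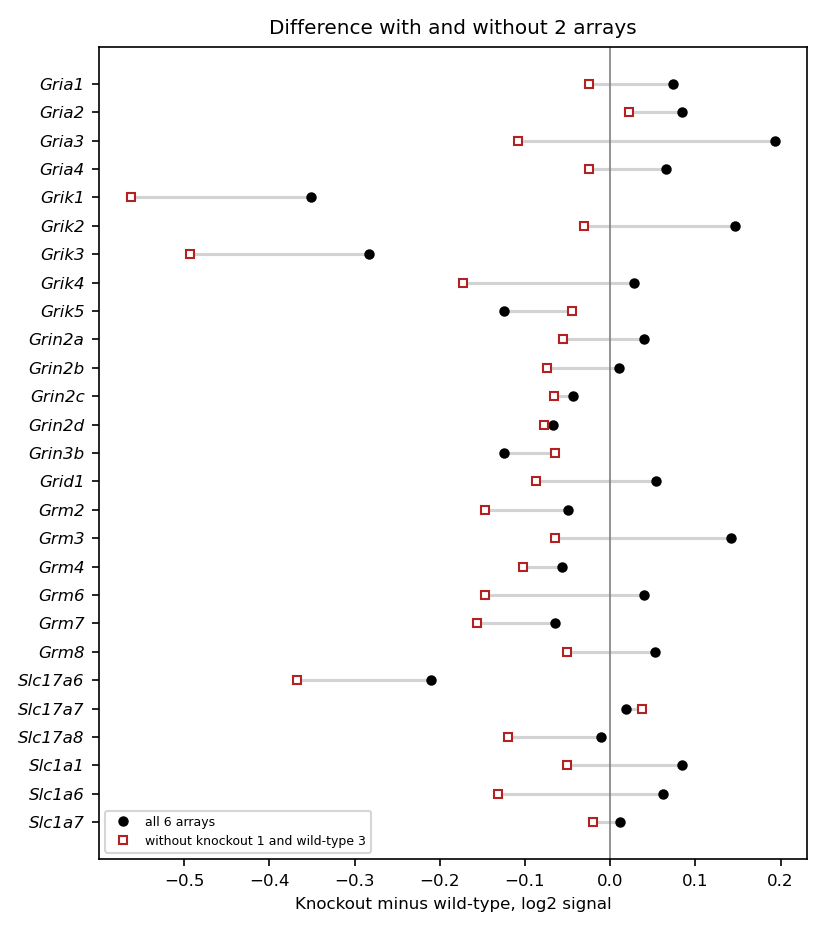
Difference in log2 signal between knockout and wild-type explants (horizontal axis) of the 27 genes with all 6 arrays (black circles) and without knockout 1 and wild-type 3 (red squares). Grik1, Grik3 and Slc17a6 lie farthest to the left in both, and 14 genes change sides.

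Further genes of the glutamate synapse were taken from 5 lists with 55 genes, of which 48 were tested. In limma 0 passed the adjusted threshold in either direction, and 0 had an unadjusted p under 0.05. Means were higher in knockout for 16 and lower for 32, and the median was -0.02. This balance depends on the scaling, since 30 were higher and 18 lower in the values as deposited, as over all genes, where 7913 were higher after quantile normalization and 9878 as deposited.

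Receptor auxiliary subunits, which traffic AMPA and kainate receptors and set their kinetics, had a median of 0.01 over 11 genes. Cacng7, an auxiliary protein of AMPA receptors, stood at -0.13 (SE 0.10), and at -0.21 without knockout 1 and wild-type 3. Neto1, a partner of kainate receptors, stood at -0.25 (SE 0.21), at -0.46 without knockout 1, -0.085 without knockout 3 and -0.52 without knockout 1 and wild-type 3. Postsynaptic scaffolds, which hold receptors opposite the release site, were lower in 13 of 16 genes with a median of -0.05, but in 8 of 16 with a median of -0.01 as deposited. Among them Dlgap4 stood at -0.23 (SE 0.14), at -0.14 without knockout 1, -0.11 without wild-type 3 and -0.028 without both. Shank2 stood at -0.14 (SE 0.10), at -0.075 without wild-type 3 and -0.079 without both.

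Genes through which mGluR6 acts on the channel Trpm1 had a median of -0.02 over 11, or 0.01 as deposited. Elfn1, the photoreceptor protein that binds mGluR6 across the cleft, stood at -0.14 (SE 0.10), and Rgs11, which speeds the end of the signal, at -0.16 (SE 0.11). Enzymes and carriers of glutamate metabolism had a median of -0.02 over 6 genes, or 0.01 as deposited. The mitochondrial aspartate aminotransferase Got2 had 6.47 ± 0.05 in knockout and 6.63 ± 0.04 in wild-type explants (SD, n = 3). Its groups were separate here and in the deposited values, with knockout the lower, at a difference of -0.16 (SE 0.09, limma adjusted p = 0.853). With 1 row per gene its unadjusted p in limma was 0.0193 (adjusted p = 0.924). It was the only 1 of the 48 genes under 0.05 in that fit, where 3.4% of all genes were called lower and 1.05% higher. Of the 48 genes tested in the 5 lists, 9 were separate and lower, 6 of them scaffolds, and 0 separate and higher, beside 11.2% and 1.7% of all genes. As deposited 3 were separate and lower, Cacng4, Shank3 and Got2, beside 3.75% of all genes. Glud1, glutamate dehydrogenase, stood at 0.07 (SE 0.12). Of the other receptor and transporter genes 4 of 7 were tested, among them the cystine and glutamate exchanger Slc7a11 at 0.11 (SE 0.11) and the lysosomal carrier Slc17a5 at 0.16 (SE 0.19). Without knockout 1 and wild-type 3 these stood at 0.0072 and -0.14, Glud1 at -0.081, Elfn1 at -0.21 and Rgs11 at -0.27. Slc7a11 stood at 0.035 without knockout 1 alone. Without both arrays auxiliary subunits were lower in 11 of 11 genes and scaffolds in 16 of 16, as were 14536 of all 17423 genes in that fit.

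Among markers of other cell types in or near the retina, the horizontal cell list was lower in 5 of 5 genes, with a median of -0.30 and Lhx1 at -0.77 (SE 0.11). Microglia markers were lower in 6 of 6 with a median of -0.08 (Cx3cr1 -0.37), and lens markers in 5 of 5 with a median of -0.10 (Cryga -0.24). Medians were 0.02 for amacrine cells (Gad2 0.34), -0.01 for Müller glia (Kcnj10 -0.18), 0.06 for astrocytes (Pdgfra 0.11), -0.01 for endothelium (Kdr -0.07) and -0.02 for pigment epithelium (Mitf -0.09). Of the 8 amacrine cell markers 4 had higher and 4 lower means, with Gad1 at -0.09. In the cone list the smallest p belonged to Pde6c at -1.08 (SE 0.14). Tacr3 held it for bipolar cells at 0.37 (SE 0.19), and Cnga1 for rods at 0.49 (SE 0.34). The groups of Cnga1 overlapped, and the other rod markers Nrl, Gnat1, Pde6b and Sag stood at -0.10, -0.02, 0.01 and 0.06. Without knockout 1 Tacr3 stood at 0.18 and without both knockout 1 and wild-type 3 at 0.14. Cnga1 ranged from 0.28 without wild-type 3 to 0.78 without knockout 1. Without both arrays Gad2 stood at 0.19, Pdgfra at -0.14, Kdr at -0.13 and Mitf at -0.19, and list medians were -0.31 for microglia, -0.49 for horizontal cells, -0.12 for Müller glia and -0.085 for astrocytes, beside -0.06 for all genes. Without knockout 3 Kcnj10 stood at -0.10 and Cx3cr1 at -0.20. None passed limma's adjusted threshold, and their part in the receptor values was not tested.

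**Figure D5:**
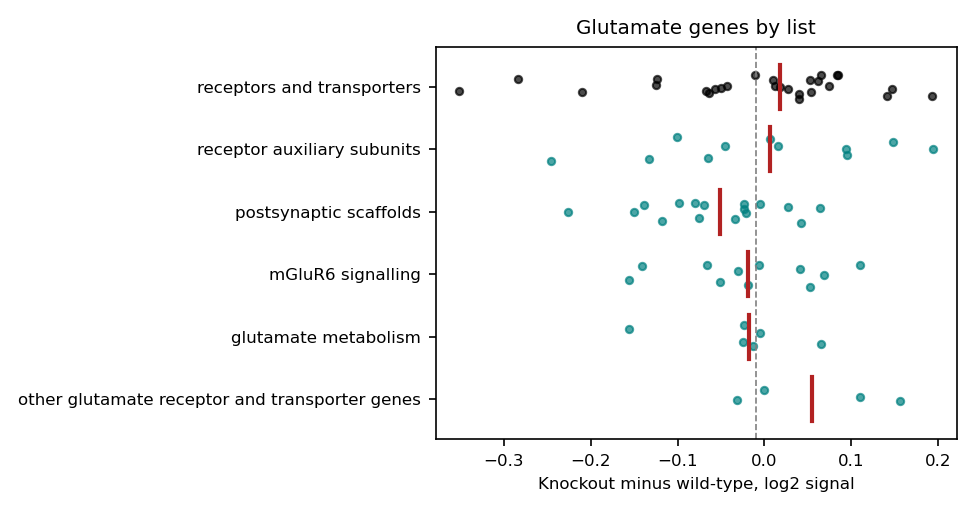
Difference in log2 signal between knockout and wild-type explants (horizontal axis) for each gene (points) of the receptors and transporters and of 5 further lists (rows), with red bars for list medians and a dashed line for the median of all genes, -0.01. Points are shifted up and down only to separate them, and no list has a median farther from 0 than 0.06.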

How the data were processed

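RNA of 6 samples was measured on Affymetrix mouse exon arrays. RNA was amplified from an oligo dT primer, per the labels' protocols. The authors deposited values for 100843 transcript clusters that look like log2 signals from their range. Per the submitters' processing notes, Affymetrix Expression Console, PLIER and build mm8 took part, with no version or role stated. How the authors normalized between arrays or corrected background is not given in the sources used. A background signal would make differences smaller than those in RNA. The small number of arrays, the arrays set apart and the identical deposited values are among the limits on precision.

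Column medians differed by 0.103, above a tolerance of 0.1, so values were quantile normalized. Clusters whose mean reached the 25th percentile (3.70) were kept, 75632 in all. RefSeq symbols (GRCm38) replaced those of the array annotation for 22101 of 22608 single-symbol clusters, and 1462 with several symbols named no gene. Genotypes were compared with lmFit and eBayes of limma 3.58.1 (R 4.3.3) over all kept clusters, two-sided, with Benjamini-Hochberg adjustment and a threshold of 0.05. Differences are knockout minus wild-type with the moderated standard error (SE). The fit was run on simulated data with independent normal errors, without arrays set apart or identical values. That run cannot tell how the fit behaves with such features. All listed genes were named, with every array for the 8 smallest p, and 2 genes of each further list and at least 1 of the marker lists used. Members and lists were chosen with earlier results of these data known. Same-numbered arrays did not deviate together (correlations 0.01, -0.09 and 0.08), so numbers were not treated as pairs. Alternatives were other scalings, filters, variance models, rows and left-out arrays; leaving out both knockout 1 and wild-type 3, and the list medians without them, were added after seeing the data. Figures were drawn with matplotlib 3.10.9.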

Additional observations from a re-analysis of the deposited data

How the results depend on the processing

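No gene of the list passed the adjusted threshold in any of the 16 alternatives, and no other gene or cluster fitted there did. Over all clusters of the main fit the smallest adjusted p of limma was 0.539. This count therefore does not set the listed genes apart. The median difference lay between -0.072 without knockout 1 and 0.057 without knockout 2, and was -0.074 without both knockout 1 and wild-type 3; the cause was not tested. The number at an unadjusted p under 0.05 was 1 with 1 row per gene (Grik1; 4.45% of all genes), 2 with array weights (2.49%) and without both arrays (2.55%), each time Grik1 and Slc17a6, 2 with the mean of a gene's clusters (Grik1 and Grm2; 4.81%), and between 0 and 1 with any array left out. The replicate block gave a median of 0.02 and 0 genes at this threshold, and changed no call. Signs were the same in all settings for 10 genes, 9 lower and 1 higher. Settings that changed only the filter, the variance trend, the blocking or the rows to 1 per gene could turn no sign. With array weights, which ranged from 0.39 for knockout 1 to 1.86 for knockout 2, the sign turned for Grik4 (-0.092), Grin2a (-0.025), Grin2b (-0.015), Grid1 (-0.043), Grm6 (-0.041), Grm8 (-0.024), Slc1a6 (-0.074), Slc1a7 (-0.013) and Pdgfra (-0.031), and with the mean of clusters for Grik4 (-0.036). Without both arrays it turned for Gria1 (-0.025), Gria3 (-0.11), Gria4 (-0.024), Grik2 (-0.031), Grik4 (-0.17), Grin2a (-0.055), Grin2b (-0.074), Grid1 (-0.087), Grm3 (-0.065), Grm6 (-0.15), Grm8 (-0.050), Slc1a1 (-0.051), Slc1a6 (-0.13), Slc1a7 (-0.020), Glud1 (-0.081), Slc17a5 (-0.14) and Pdgfra (-0.14). With 1 array left out in turn, the ranges of differences that changed sign were Grik4 -0.073 to 0.13, Grin2a -0.041 to 0.080, Grin2b -0.039 to 0.096, Grid1 -0.076 to 0.14, Grm2 -0.13 to 0.0066, Grm6 -0.083 to 0.12, Grm8 -0.050 to 0.11, Slc17a7 -0.012 to 0.043, Slc17a8 -0.14 to 0.065, Slc1a1 -0.034 to 0.15, Slc1a6 -0.12 to 0.15, Slc1a7 -0.019 to 0.039, Glud1 -0.035 to 0.12, Slc17a5 -0.0073 to 0.26 and Pdgfra -0.043 to 0.23. With 3 arrays per group and 4 residual degrees of freedom, standard errors of 0.09 to 0.29 in the main fit limit what could be detected. The smaller ones also depend on which rows are fitted together. With 1 row per gene the standard error of Slc17a7 was 0.049 in place of 0.089, and that of Grik3 was 0.28 in place of 0.29.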

Other observations

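Identical deposited values were common. Of the 27 receptor and transporter genes 16, or 59.3%, had exactly the same deposited value on at least 2 arrays, beside 61.6% of all genes, and 3 genes, or 11.1%, had it on at least 4 arrays, beside 16.3%. Grin2a read 5.96 and Grm8 7.44 on all arrays except knockout 1, and Slc1a7 read 7.90 on 4 arrays. After quantile normalization the 5 equal values of Grm8 spread from 7.40 to 7.49.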
